A study of Mus musculus with 20 samples.

Results

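Triptolide at 10 µM was given to mouse E14-WT embryonic stem cells, grown in serum, for 2 h or for 1 h, and the labelled RNA of the later time is set here against that of the earlier time. The genes compared are all protein-coding genes with a value above 0.5 reads per kb in either triptolide column, which makes 2206 of the 22556 genes in the deposited table, or 9.78%, and they are called members below. The other conditions of the same cells are DRB at 100 µM for 2 h and 5 h, and no drug. In each condition RNA was labelled for 10 min with 4-thiouridine at 150 µM (4sU), with an unlabelled group as background, and the 20 samples make 10 groups of 2 replicates. E14-WT is a single cell line. The table holds 1 column per condition, so no value has a replicate error and no difference has a test. Intervals in brackets are exact (Clopper-Pearson) 95% intervals for a ratio of 2 read numbers and cover counting error only. Values listed at 0 include negative ones that the authors had set to 0.

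Triptolide binds XPB, the helicase of the general factor TFIIH, and keeps RNA polymerase II from opening promoter DNA. Polymerases that are already past the promoter go on to the end of the gene and beyond it, where the transcript is cut and the polymerase is released, and a long gene takes longer to clear than a short gene. A short pulse of 4sU tags only RNA made during the pulse, so the labelled reads in a gene follow the polymerases still moving through it. RNA polymerase III, which makes tRNA, uses no TFIIH in textbook accounts.

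In the sum over all genes with a known length, net reads were 60565 after 2 h and 72012 after 1 h of triptolide, against 1220602 without drug. Whether the columns were scaled to a common depth is not given in the sources used here, so a difference in depth and a difference in RNA cannot be told apart. In bulk RNA, fewer cells of a type and less RNA per cell cannot be told apart either. The 8 embryonic stem cell markers summed to 5.70 reads per kb after 2 h, 2.90 after 1 h and 299 without drug, where 7 of them were above 1 and Dppa5a was listed at 0. The 8 fibroblast or feeder markers summed to 0.490, 1.73 and 13.5 reads per kb in the same order, the primitive endoderm markers to 0.133, 0.289 and 2.33, and the 8 neural markers to 0.926, 1.82 and 19.1. Among these markers, Col3a1, Col1a2, Postn, Dab2, Sox17 and Neurog2 were listed at 0 without drug. The part of these markers in the results was not tested.

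Among the members, 407 were above 0.5 reads per kb at both times, 981 only after 2 h and 818 only after 1 h. A total of 518 members were listed at 0 after 2 h, 669 after 1 h and 231 without drug. Just inside the threshold were Fuk at 0.5001 and 0.100 reads per kb at 2 h and 1 h, Snx21 at 0.125 and 0.5004, and Ccdc23 at 0 and 0.5007. Just outside it were Perp at 0 and 0.4999, Eif2ak2 at 0.4999 and 0.233, and Six2 at 0.4993 and 0. The depth behind these values is low. Of the members, 2060 had a length near their annotated span, and their higher column held a median of 8 net reads (quartiles 4 and 16, largest 1225). In 449 of them that column held 3 net reads or fewer, and 430 members had 20 or more.

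By a size rule of at least 1 on the log2(value + 0.5) scale, 638 members were lower after 2 h than after 1 h (28.9%) and 750 were higher (34%), while 818 lay within that size, with a median log2 difference of 0.24. The rule that chose the members takes its values from the same columns, so a member that passed through 1 column alone was bound to be lower in the other. With the pseudocount of 0.5, every member listed at 0 in 1 column passes the size rule by construction. These make up 518 of the 638 lower calls (81.2%) and 669 of the 750 higher calls (89.2%), and no gene outside the members can pass it. With at least 20 net reads in the higher column, 106 of 430 were lower (24.7%) and 76 higher (17.7%), with a median of 0.07. Under equal net read sums, which multiply the 2 h column by 1.19, the members split into 617 lower and 814 higher, and after quantile normalization into 692 lower and 628 higher. Of the calls, 54% were on the higher side over all members, 47.6% after quantile normalization and 41.8% among members with at least 20 net reads, so which direction held more members depended on the scaling and on depth.

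Gene length separated the times. Over all genes with a length, members or not, genes under 200 kb held 51450 net reads after 2 h and 44571 after 1 h, a ratio of 1.15 (1.14 to 1.17), while genes of 200 kb or more held 9115 and 27441, a ratio of 0.332 (0.324 to 0.340). Seen against no drug, the short group stood at 4.61% after 2 h and 3.99% after 1 h, and the long group at 8.80% and 26.5%. Long genes therefore held a larger share of their no-drug reads than short genes at both times, and the gap was wider at 1 h.

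The times parted with length. Genes of 100 to 150 kb stood at 5.64% of no drug after 2 h and 4.72% after 1 h, and genes of 150 to 200 kb at 5.78% and 7.35%. From 200 to 250 kb the values were 4.51% and 11.6%, from 250 to 300 kb 8.52% and 31.1%, and from 300 to 350 kb 8.60% and 44.8%, where the ratio of 2 h to 1 h was lowest at 0.192 (0.178 to 0.207). After 1 h the share was higher again above that and then level, at 53.2% for 350 to 400 kb, 52.4% for 400 to 600 kb and 51.2% for 600 to 1000 kb. After 2 h it was higher with length over the same classes, at 11.1%, 16.2% and 23.5%. The 54 models of 1000 kb or more stood at 6.18% and 6.33%, close to short genes. Of these models, 2 hold 5 or more other genes of the table, up to 72, and 40 hold none.

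**Figure D1:**
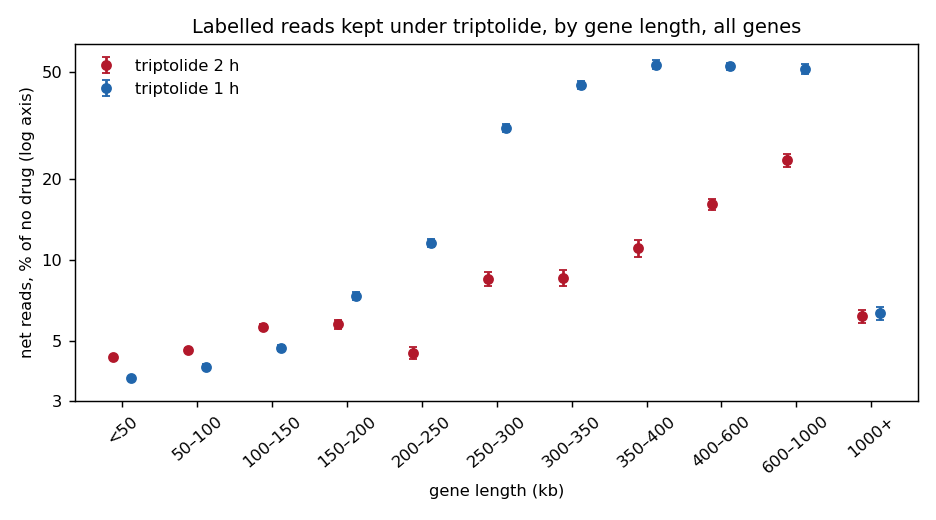
Net reads after triptolide for 2 h (red) and 1 h (blue) as a percent of those without drug, on a log axis, against gene length in kb, for all genes with a length. Bars are exact 95% intervals for counting error. The blue points climb to 53.2% at 350 to 400 kb and are level from there to 1000 kb, while the red points reach 23.5% only at 600 to 1000 kb.

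Among members alone the classes under 5 kb, 5 to 20 kb and 20 to 50 kb had ratios of 2 h to 1 h of 1.05 (0.982 to 1.12), 1.15 (1.11 to 1.19) and 1.09 (1.06 to 1.13). Members of 50 to 100 kb had 0.858 and of 100 to 200 kb 0.703, but over all genes of those lengths the ratios were 1.16 and 1.03, so these values belong to the members as chosen. Members of 200 to 400 kb held 522 net reads after 2 h and 6235 after 1 h (0.0837, 0.0764 to 0.0916), and those of 400 kb or more 812 and 3558 (0.228, 0.211 to 0.246; 0.151 without Chrm3). The genes of 200 kb or more that were not members, 913 in number, held 7781 and 17648 (0.441, 0.429 to 0.453). The lower value at 2 h was thus seen on both sides of the threshold that chose the members.

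The members of 200 kb or more are 27 genes, and 26 of them had a lower value after 2 h than after 1 h. By the size rule 18 were lower, 1 was higher and 8 lay within. Their median was 0.0687 reads per kb after 2 h, 0.807 after 1 h and 1.59 without drug, and after DRB it was 0.529 at 2 h and 0.0592 at 5 h. Each of the 26 was under 0.5 reads per kb after 2 h and had entered through the 1 h column, so each was bound to be lower after 2 h. Nothing is therefore read from the count of 26. Leaving out Chrm3, the exception, the ratio of net reads was 0.108 (0.102 to 0.115), against 0.136 with it. The choice lowers these ratios too. Over all genes of 200 kb or more the ratio was 0.332, and over those that were not members 0.441.

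**Figure D2:**
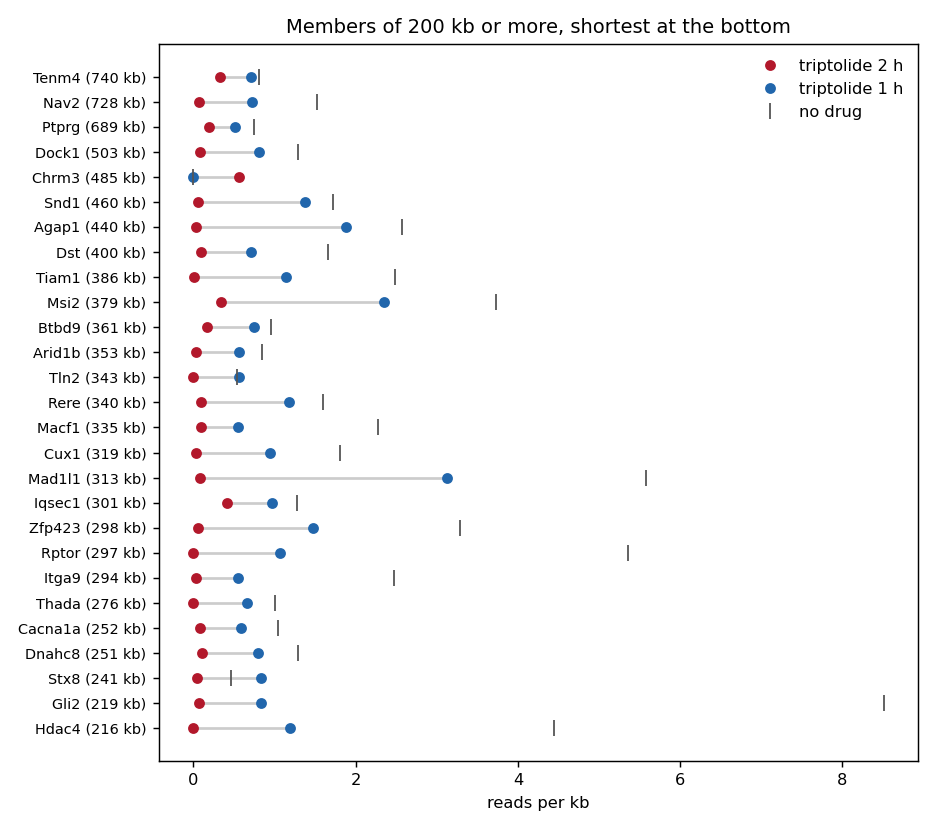
The 27 members of 200 kb or more, each on its own line with its length, with reads per kb after triptolide for 2 h (red) and 1 h (blue) and without drug (tick). The red point lies left of the blue in 26 lines, which the choice of these members through the 1 h column fixed. Chrm3 is the exception, at 0.565 after 2 h and 0 in the other conditions.

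Mad1l1, which encodes a spindle checkpoint protein (chromosome 5, 140008689 to 140321552, minus strand, GRCm38), had the most reads of them at 1 h. It stood at 0.0767 reads per kb after 2 h and 3.12 after 1 h, against 5.58 without drug, from 24, 976 and 1747 net reads. After DRB it stood at 1.56 at 2 h and 0.281 at 5 h. Its ratio of 2 h to 1 h was 0.0246 (0.0157 to 0.0368), with a log2 difference of -2.65. Mad1l1 thus held 55.9% of its no-drug level at 1 h and 1.37% an hour later.

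Rptor, which encodes the Raptor subunit of the growth-regulating kinase complex mTORC1 (chromosome 11, 119602905 to 119899576, plus strand), was listed at 0 after 2 h, at 1.07 reads per kb after 1 h and at 5.36 without drug. Those 1 h and no-drug values stand for 318 and 1589 net reads. Hdac4, a histone deacetylase gene, Thada and Tln2, the gene of the adhesion protein talin 2, were also listed at 0 after 2 h, against 1.19, 0.659 and 0.560 reads per kb after 1 h. All 4 were lower by the size rule, with log2 differences of -1.65 for Rptor, -1.76 for Hdac4, -1.21 for Thada and -1.09 for Tln2.

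Agap1, the gene of a GTPase-activating protein, stood at 0.0318 reads per kb after 2 h and 1.88 after 1 h, against 2.57 without drug. Snd1, the gene of a nuclease-domain coactivator, stood at 0.0522, 1.37 and 1.72 in the same order. Tiam1, a Rac exchange factor gene, had the lowest ratio of any member with reads at both times, 0.00909 (0.00247 to 0.0234), at 0.0104 and 1.14 reads per kb. Zfp423 stood at 0.0571 and 1.47, Cux1, a homeobox gene, at 0.0344 and 0.949, and Msi2, the gene of the RNA-binding protein Musashi 2, at 0.335 and 2.35. The developmental regulator Gli2, an effector of Hedgehog signalling, stood at 0.0638 and 0.834 reads per kb, against 8.51 without drug. At 9.80% of no drug, Gli2 had the lowest share of the 26 at 1 h, and it is, at 219 kb, among the shortest of them. Stx8, of 241 kb, is also among the shortest but had the highest share at 1 h, 181%. It stood at 0.0415 and 0.834 reads per kb, against 0.461 without drug. Above no drug at 1 h were 2 of the 26, Stx8 and Tln2.

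Some of the 26 kept more after 2 h than their median of 4.28% of no drug, and these were not only the longest. Iqsec1, of 301 kb, kept 32.1% and Btbd9, of 361 kb, 17.3%, while the longer Agap1 and Snd1 kept 1.24% and 3.03%. Dst, of 400 kb, stood at 0.0924 reads per kb after 2 h and 0.712 after 1 h, and kept 5.58% after 2 h. Tenm4, a teneurin gene of 740 kb, stood at 0.323 reads per kb after 2 h and 0.711 after 1 h, against 0.804 without drug, and its ratio was 0.454 (0.388 to 0.530). Ptprg, a receptor phosphatase gene of 689 kb, stood at 0.193, 0.510 and 0.749, with a ratio of 0.379 (0.308 to 0.464). Nav2, of 728 kb, stood at 0.0687, 0.728 and 1.53, with a ratio of 0.0943 (0.0691 to 0.126), so length alone does not order these 3. Chrm3, the muscarinic M3 receptor gene of 485 kb on chromosome 13, had 274 net reads after 2 h, 0.565 reads per kb, and was listed at 0 in each of the other 4 columns. Whether these reads come from Chrm3 itself or from how reads were mapped or counted was not tested. Klf12, whose length of 275 kb comes from the step of its values alone and which is outside the 27, stood at 0.0218 and 0.505 reads per kb at 2 h and 1 h.

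Some members overlap a long gene. Lrrc4, of 170 kb in the table, lies within Snd1 on the other strand, and was listed at 0 after 2 h and at 1.72 reads per kb after 1 h, from 292 net reads. Fam196a lies within Dock1 on the other strand and was listed at 0 and at 0.637. Without a strand, reads of such a pair cannot be told apart, and the use of strand in counting is not given in the sources used here. Of 14 members under 200 kb that overlap a gene of 200 to 1000 kb, 7 were lower, 3 higher and 4 within the size, but 9 of the 14 had 9 or fewer net reads in the higher column. Over all members 28.9% were lower and 34% higher.

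Genes just past the 3′ end of a long gene, members or not, differed between the times as well, a comparison added after these values had been seen. Hosts were genes with at least 100 net reads without drug, and neighbours were genes under 100 kb that overlap no gene of 100 to 1000 kb. The 113 neighbours within 50 kb past the end of a host of 200 to 400 kb held 730 net reads after 2 h and 1752 after 1 h, a ratio of 0.417 (0.382 to 0.455). This was 8.05% of no drug after 2 h and 19.3% after 1 h. The 64 neighbours within 50 kb before the start of the same hosts held 227 and 132 net reads, a ratio of 1.72 (1.38 to 2.15), or 3.37% and 1.96% of no drug. The intervals of the ratios do not overlap, so at this host length the sides differed by more than counting error. Hosts of 400 to 1000 kb, 47 in number, did not show this: neighbours within 50 kb past their end had a ratio of 1.03 (0.715 to 1.49) and those before the start 0.712 (0.559 to 0.904), from 15 and 21 genes.

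Farther past the end of hosts of 200 to 400 kb, reads were higher at 2 h than at 1 h. Neighbours 50 to 100 kb past the end of a host of 200 to 400 kb held 269 net reads after 2 h and 185 after 1 h (1.45, 1.20 to 1.76), and those 100 to 200 kb past it 715 and 422 (1.69). Neighbours 50 to 100 kb before the start of these hosts had 1.43 (1.12 to 1.83), near the value at that distance past the end, and those 100 to 200 kb before it 1.13 (0.968 to 1.32). For hosts of 100 to 200 kb, neighbours within 50 kb past the end had a ratio of 0.545 (0.508 to 0.584) and those before the start 1.59 (1.45 to 1.76). At 50 to 100 kb past their end it was 0.920 (0.828 to 1.02), and at 100 to 200 kb 1.38. For hosts of 20 to 100 kb the ratios were 1.18 (1.15 to 1.22) past the end and 1.33 (1.29 to 1.38) before the start. Neighbours on either strand had fewer reads at 2 h than at 1 h. Past a host of 200 to 400 kb the ratio was 0.461 (0.415 to 0.511) on the strand of the host and 0.331 (0.280 to 0.389) on the opposite strand. Baiap2, on the strand of its host, has the most reads of these neighbours. It gave 279 of the 533 net reads on the host strand at 2 h and 58 of the 1156 at 1 h. Nothing is therefore read from the gap between the strands. Without Baiap2 the ratio over both strands was 0.266 in place of 0.417.

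**Figure D3:**
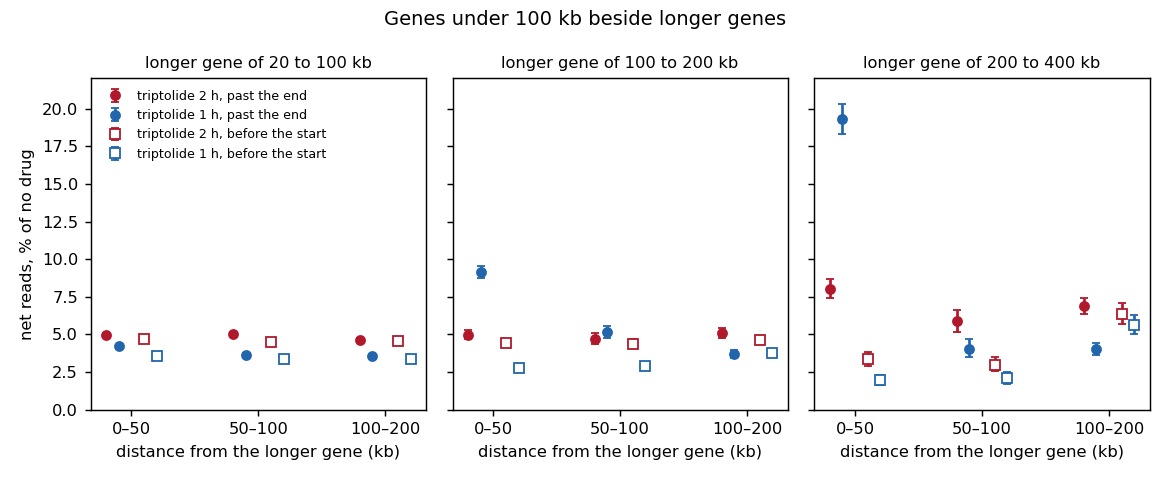
Net reads as a percent of no drug for genes under 100 kb beside a longer gene, by distance in kb and by the length of the longer gene (panels), after triptolide for 2 h (red) and 1 h (blue). Filled circles lie past the end of the longer gene, open squares before its start, and bars are exact 95% intervals for counting error. Longer genes of 400 to 1000 kb are not drawn. The highest point drawn is 19.3%, at 1 h within 50 kb past the end of genes of 200 to 400 kb.

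Members with at least 20 net reads in the higher column were counted at these places. Within 50 kb past a host of 200 to 400 kb were 30 of them, of which 19 were lower by the size rule, 1 higher and 10 within. Of the 30, 9 were listed at 0 after 2 h, and 18 were above no drug at 1 h. Within 50 kb past a host of 100 to 200 kb were 25, of which 14 were lower and 2 higher. From 100 to 200 kb past a host of 200 to 400 kb were 12, of which 1 was lower and 6 higher. Hosts of 400 to 1000 kb had no such member at either of these distances. The background among members with that many reads is 24.7% for lower calls and 17.7% for higher calls. No background was counted for values above no drug. Tfcp2l1 is counted at 2 places, within 50 kb past Clasp1 and, as the 1 lower member from 100 to 200 kb, past Gli2.

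Past Rptor, Chmp6, the gene of an ESCRT-III membrane-remodelling subunit, begins 13.9 kb from the end and was listed at 0 after 2 h, at 8.35 reads per kb after 1 h and at 3.11 without drug. Baiap2, an actin regulator gene 43.2 kb from the end, stood at 4.36 reads per kb after 2 h and 0.906 after 1 h, against 5.41 without drug, from 279, 58 and 346 net reads. Aatk, a kinase gene on the opposite strand 108 kb from the end, stood at 0.853 after 2 h, was listed at 0 after 1 h and stood at 0.0753 without drug. Of these 3 genes, Chmp6 had the highest reads per kb at 1 h and Baiap2 at 2 h, and Aatk had reads at 2 h but not at 1 h.

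Past Agap1, of 440 kb, the nearer of 2 members was higher at 1 h and the farther at 2 h, but the farther had reads at both times and lay within the size rule. As a set, neighbours within 50 kb past hosts of 400 to 1000 kb had a ratio of 1.03. D130058E05Rik, 32.6 kb from the end, was listed at 0 after 2 h and stood at 3.07 reads per kb after 1 h, from 10 net reads, and was listed at 0 without drug. Asb18, a ubiquitin ligase adaptor gene on the opposite strand 52.6 kb from the end, stood at 1.19 reads per kb after 2 h and 0.435 after 1 h, against 0.0967 without drug. Past Cux1, Sh2b2, an adaptor protein gene 1.58 kb from the end, was listed at 0 after 2 h and stood at 1.87 after 1 h, against 0.748 without drug, while Rasa4, 136 kb from the end, stood at 0.895 and 0.107, against 2.00 without drug. Prkrip1, 49.2 kb past Cux1, was not lower at 2 h, at 0.768 and 0.432 reads per kb, a ratio of 1.78 (0.740 to 4.56). Alkbh4, 107 kb past Cux1, had reads at both times, at 5.12 and 3.11 reads per kb. Elfn1, 34.0 kb past Mad1l1 on the opposite strand, stood at 0.404 and 0.644 reads per kb, against 0.150 without drug.

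**Figure D4:**
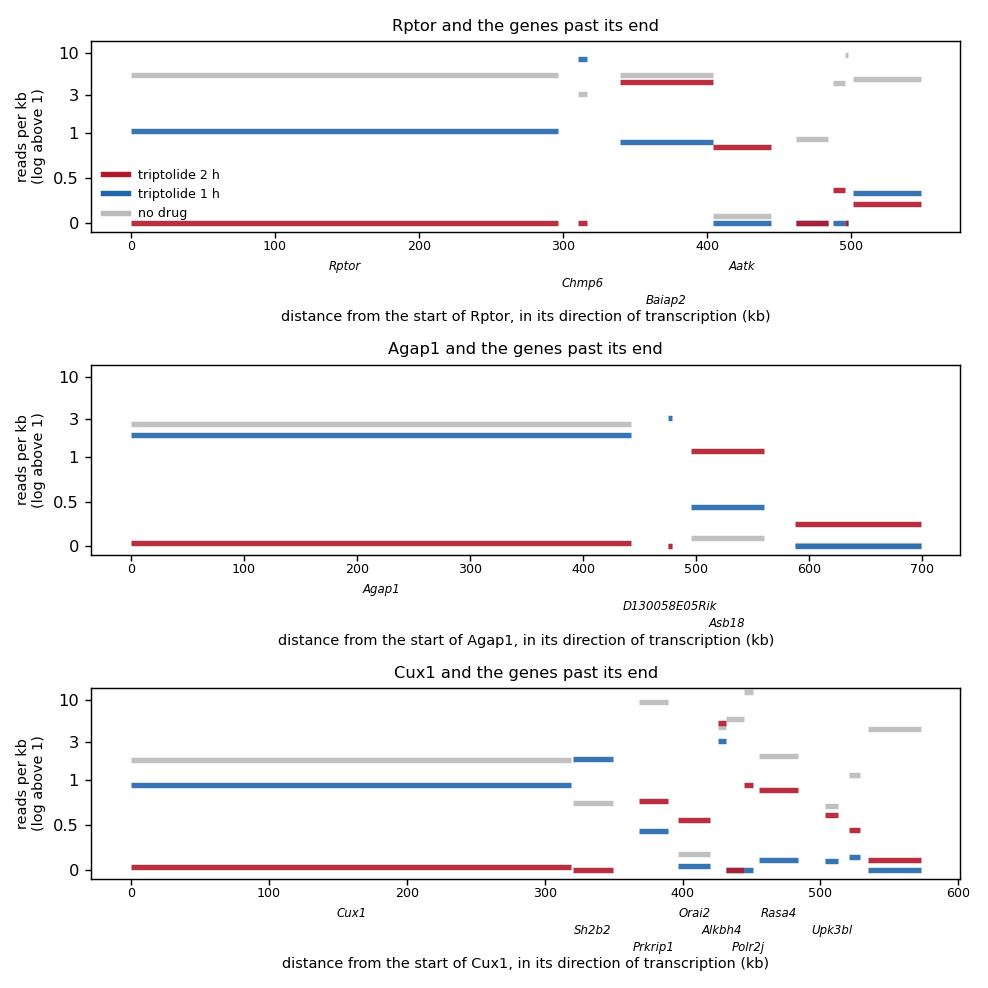
Reads per kb of each gene (a bar spanning the gene) along Rptor, Agap1 and Cux1 and the genes past their ends, against distance in kb from the start of the long gene, after triptolide for 2 h (red) and 1 h (blue) and without drug (grey). Members are named under each panel. Chmp6 is high at 1 h and at 0 at 2 h, and Baiap2 is higher at 2 h.

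Others past a long gene were Ikbke, a kinase gene of innate immune signalling, at 0.0396 reads per kb after 2 h and 2.69 after 1 h, against 0.119 without drug, and Mfi2, the melanotransferrin gene, at 0.0495 and 1.39, against 0.0990. Their hosts, Srgap2 and Dlg1, held few reads themselves at either time, with 9 and 5 net reads in Srgap2 and 5 and 0 in Dlg1 at 2 h and 1 h. Slc45a1 past Rere stood at 0.212 and 2.54, against 0.0424 without drug. Dnajb8, a chaperone gene past Eefsec, was listed at 0 after 2 h, stood at 2.02 after 1 h from 65 net reads, and was listed at 0 without drug. Tfcp2l1, a pluripotency factor gene 15.3 kb past Clasp1, was listed at 0 after 2 h and stood at 1.89 after 1 h from 108 net reads. Its 15.0 without drug was far above both. Eefsec itself held 0 and 6 net reads at 2 h and 1 h, and Clasp1 held 21 and 27. Abcg1, a cholesterol transporter gene 180 kb past Dnahc8, stood at 1.36 after 2 h and 0.0689 after 1 h, against 1.46 without drug, a ratio of 19.8 (7.42 to 74.3). Lhpp, a phosphatase gene past Fam53b, had the highest ratio of the members with reads at both times, 27.0 (7.12 to 229), at 0.564 and 0.0209 reads per kb.

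Other members at the extremes of the ratio were named by that ratio, whatever their place. Spag5, a spindle protein gene, stood at 1.05 reads per kb after 2 h and 0.0478 after 1 h, against 3.58 without drug, and Nsd1, a histone H3 methyltransferase gene of 109 kb, stood at 0.571 and 0.0461, against 11.0. The ratios of Naa16, Clcn6, Mob3a, Rasgrp2, Ddx42 and Fbxo42 lay between 10.0 in Fbxo42 and 15.0 in Naa16. Each of these had at most 5 net reads at 1 h, so the size of the ratio is poorly fixed, with an interval of 5.04 to 39.5 for Nsd1 and of 3.56 to 908 for Spag5. Tmpo, the gene of the nuclear envelope protein lamina-associated polypeptide, had the most net reads at 2 h of members listed at 0 after 1 h besides Chrm3. It stood at 2.83 reads per kb after 2 h from 68 net reads, against 13.99 without drug, with a length from the step of its values alone. Rest, a repressor of neuronal genes, stood at 1.91 and was listed at 0 after 1 h, against 28.2 without drug, and likewise Glce stood at 0.749 against 0.374 without drug, and Tnpo3 at 0.536 against 2.42. On the lower side, Nxn, a redox protein gene of 142 kb, stood at 0.0282 and 0.620, against 1.31 without drug, with a ratio of 0.0455 (0.0121 to 0.121).

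Some members kept their signal. Of 138 members with at least 20 net reads at each triptolide time, 49 lay within the size rule and had at least 50% of their no-drug value at both times. These values chose them, so what follows describes them. Their median was 1.53 reads per kb after 2 h and 1.29 after 1 h, against 1.41 without drug. The choice sets them against the no-drug column, and their median there is lower than the 3.67 of all members. After DRB their median was 2.36 at 2 h and 1.49 at 5 h. Above no drug after 2 h of DRB were 39 of the 49 (79.6%) and 346 of all members (15.7%), but the no-drug value in that count is the one used in the choice, so nothing is read from it. Above no drug were 26 after 2 h and 26 after 1 h of triptolide, 22 of them at both times. Their lengths ran from 0.536 to 129 kb with a median of 23.5 kb.

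Some of the 49 hold a tRNA gene. Of 27 annotated genes that hold a gene of RNA polymerase III, 9 were members, or 33.3%, against 9.94% of all annotated genes. Among the 49 were 6 of them, or 12.2%, where 0.416% of annotated members hold one. The 49 were chosen from the 138 members with at least 20 net reads at each time. The 0.416% is over annotated members of any depth, so nothing is read from that difference. By the size rule none of the 9 was lower, 1 was higher and 8 lay within, where 28.9% of all members were lower, 34% higher and 37.1% within. Depth differs between these sets, since 7 of the 9 had at least 20 net reads in the higher column. None of the 7 was lower or higher. Among all members of that depth 24.7% were lower, 17.7% higher and 248 of 430 within. BC107364, which holds tRNA genes for histidine and asparagine, stood at 5.56 reads per kb after 2 h and 5.51 after 1 h, against 4.37 without drug, and at 6.26 and 4.91 after 2 h and 5 h of DRB. Hes7, an oscillating gene of somite formation that holds an arginine tRNA gene, stood at 7.67 and 9.04, against 13.4 without drug. Btn1a1, the butyrophilin gene of milk fat, with a glutamate tRNA gene inside it, stood at 6.85 and 5.39, against 3.26. 1700064H15Rik stood at 6.23 and 8.96, against 8.58, 1110001J03Rik at 4.2 and 3.53, against 6.22, and Trim7, a ubiquitin ligase gene, at 1.61 and 2.34, against 2.57. Dhx9, an RNA helicase gene with an isoleucine tRNA gene, was the member that was higher, at 0.564 and 0, against 20.1 without drug.

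Of the hosts of other small RNA genes, 42 of 454 for snoRNA genes (9.25%), 31 of 500 for snRNA genes (6.20%) and 113 of 1071 for microRNA genes (10.6%) were members, beside the 9.94% of all annotated genes. Of these members, 10, 11 and 35 were lower by the size rule and 14, 5 and 46 higher, beside 28.9% and 34% over all members. Among the 49, which are 2.22% of the members, were 2, 1 and 1 of them.

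Others of the 49 hold no tRNA gene. Rps19bp1, which encodes a binding partner of ribosomal protein S19 and of SIRT1, stood at 24.1 reads per kb after 2 h and 29.0 after 1 h, against 17.9 without drug, and at 47.7 and 20.9 after 2 h and 5 h of DRB. Hscb, an iron-sulfur cluster cochaperone gene, stood at 7.29 and 5.70, against 3.92, and Mrpl24, a mitochondrial ribosomal protein gene, at 9.84 and 6.48, against 12.5. Trappc6a stood at 3.21 and 3.75, against 1.07, and Ogg1, a DNA repair glycosylase gene, at 3.46 and 4.57, against 3.58. Mrps12, another mitochondrial ribosomal protein gene, was outside the 49 because it was higher by the size rule, at 26.6 and 12.9 reads per kb, against 10.6. 0610039K10Rik, at 27.4 and 20.0, against 6.32, and Gm10801, at 11.4 and 9.75, against 3.79, were also outside the 49, with 19 and 18 net reads at 1 h. Hist1h4i, a histone H4 gene, stood at 98.9 and 50.4, against 22.4, but its length of 0.536 kb comes from the step of its values alone. Erdr1 stood at 38.6 and 28.1, against 55.1, from 1225 and 890 net reads at 2 h and 1 h. Gm10800, at 88.9, 95.5 and 66.3 reads per kb, and Gm21738, at 7.81 and 8.79 and listed at 0 without drug, belong, like Gm10801, to repeated families whose reads may be shared among copies, and these values are uncertain. Asb18, Ift43, Rassf5 and Elfn1, also among the 49, lie past the end of a long gene. Asb18 and Rassf5 lay within the size rule but differed between the times by more than counting error. Their ratios of 2 h to 1 h were 2.74 (1.74 to 4.43) for Asb18 and 0.315 (0.198 to 0.486) for Rassf5. Erdr1, Hist1h4i and the tRNA gene host 1700064H15Rik, also among the 49, differed by more than counting error too. Their ratios were 1.38, 1.96 and 0.695 in that order.

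**Figure D5:**
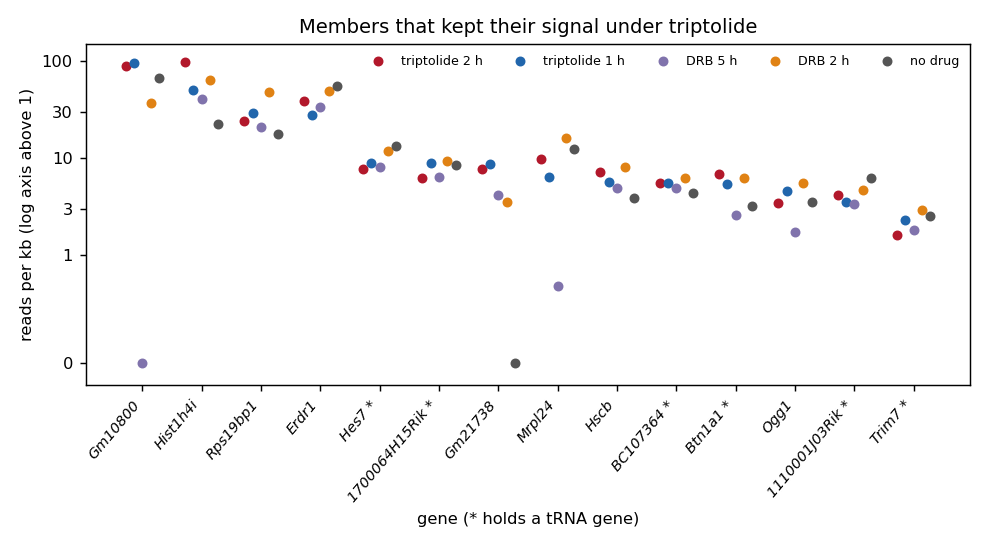
Reads per kb, on an axis that is logarithmic above 1, of 14 of the 49 members that kept their signal, after triptolide for 2 h (red) and 1 h (blue), DRB for 5 h (purple) and 2 h (orange), and without drug (grey). The 14 are the 12 with the highest value at 1 h and the other hosts of a tRNA gene. An asterisk marks the 6 that hold one.

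Promoter sequence was compared because triptolide acts at the step of promoter opening. RefSeq windows of 250 bases before to 50 after the start (GRCm38.p6) were matched by symbol for 36 of the 49 members that kept their signal and 24 of the 27 of 200 kb or more. The motif TATAAA, on either strand, was in 5.56% of the first set and 0 of the second, and in 12.5% of the windows of all 16332 matched genes. The dinucleotide CG occurred a median of 17.5 times a window in the first set, 22.5 in the second and 14 over all matched genes. Among all 1617 matched members those values were 7.11% and 19, which lie near those of the smaller sets. The windows of Mad1l1 (chr5:140321503-140321802, minus strand) and Rptor (chr11:119602655-119602954, plus strand), which stood far lower at 2 h than at 1 h, and of Rps19bp1 (chr15:80264257-80264556, minus strand), which kept its signal, are given with each CG in capitals, 25, 13 and 23 in number. None holds TATAAA.
Mad1l1: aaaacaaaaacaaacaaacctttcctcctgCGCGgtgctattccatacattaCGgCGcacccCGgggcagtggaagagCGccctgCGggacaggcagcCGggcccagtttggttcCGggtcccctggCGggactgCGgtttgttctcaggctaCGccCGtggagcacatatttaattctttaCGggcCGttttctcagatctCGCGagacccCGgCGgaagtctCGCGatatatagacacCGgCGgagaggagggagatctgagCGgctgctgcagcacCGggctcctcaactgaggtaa
Rptor: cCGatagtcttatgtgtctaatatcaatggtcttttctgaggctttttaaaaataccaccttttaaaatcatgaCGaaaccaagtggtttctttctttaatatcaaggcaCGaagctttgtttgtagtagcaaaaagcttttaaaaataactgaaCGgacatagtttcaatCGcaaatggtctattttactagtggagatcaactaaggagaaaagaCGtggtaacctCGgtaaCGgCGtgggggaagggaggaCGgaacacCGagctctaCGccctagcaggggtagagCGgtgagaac
Rps19bp1: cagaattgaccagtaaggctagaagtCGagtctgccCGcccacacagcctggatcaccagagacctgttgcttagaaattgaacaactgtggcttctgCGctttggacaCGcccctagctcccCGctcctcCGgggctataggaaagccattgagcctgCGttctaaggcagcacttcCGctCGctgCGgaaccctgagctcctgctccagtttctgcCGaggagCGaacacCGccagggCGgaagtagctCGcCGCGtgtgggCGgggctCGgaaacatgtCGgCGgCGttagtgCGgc

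Genes of the transcription machinery, on which the drug acts, were counted next. Of 23 genes of TFIIH and RNA polymerase II, 5 were members, with 1 lower and 3 higher by the size rule. Polr2a, the largest subunit of RNA polymerase II, stood at 0.649 reads per kb after 2 h and was listed at 0 after 1 h, and Polr2g stood at 3.13 and 0.553. Gtf2h5, the smallest TFIIH subunit, stood at 0.149 and 0.594. Of 34 genes of RNA polymerases I and III, 10 were members, with 1 lower and 1 higher. Polr3e, a subunit of RNA polymerase III, stood at 4.92 and 5.12, against 12.3 without drug, and Polr3gl, another subunit gene, at 2.39 and 1.10, against 3.99. Taf1d, a factor of RNA polymerase I that also hosts snoRNA genes, stood at 5.60 and 2.89, against 74.7. Of 28 genes of the elongation kinase P-TEFb and its regulators, 5 were members, with 2 lower and 2 higher. Hexim1, an inhibitor of P-TEFb, was listed at 0 after 2 h and stood at 1.47 after 1 h, against 18.8, from 5 net reads at 1 h.

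Of 35 pluripotency genes 10 were members, with 2 lower and 4 higher. Nanog, a core factor, stood at 0.840 reads per kb after 2 h from 6 net reads and was listed at 0 after 1 h, against 29.96 without drug, and Tdgf1, a Nodal coreceptor gene, stood at 3.97 and 2.90, against 35.1. Pou5f1 and Sox2 were listed at 0 at both times, against 62.5 and 69.6 without drug, and are not members. Of 11 genes of Polycomb repressive complex 2, which methylates histone H3, Ezh2, its catalytic subunit, was the member. It stood at 0.968 reads per kb after 2 h and 0.277 after 1 h, against 2.11, a ratio of 3.50 (2.05 to 6.28) from 63 and 18 net reads, and lay within the size rule. Suz12 stood at 0.366 and 0, Jarid2 at 0.260 and 0.177, and Eed was listed at 0 at both times, against 5.53, 11.4 and 8.96 without drug. Of 22 genes of complex 1, 4 were members, with 1 higher, and Cbx7, a chromobox subunit gene, stood at 0.0904 and 0.506, against 23.6. Ext1, a heparan sulfate polymerase gene of 282 kb that is not a member, stood at 0.0567 and 0.220, against 1.79.

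Of 32 immediate early genes, which serum and stress switch on quickly, 15 were members, with 6 lower and 2 higher. Dusp1 stood at 0.683 reads per kb at both times, against 9.90 without drug, and Myc was listed at 0 after 2 h and stood at 0.602 after 1 h, against 22.7. Of 88 ribosomal protein genes 36 were members, with 13 lower and 15 higher, and 13 were listed at 0 at each time. Rpl3 was listed at 0 after 2 h and stood at 3.91 after 1 h, against 254 without drug. Of 68 replication-dependent histone genes 22 were members, with 8 lower and 12 higher, and all but Hist1h4i had under 20 net reads. Of 32 cell cycle genes 5 were members, with 1 lower and 4 higher, none with 20 net reads. Of 35 splicing factors 5 were members, with 2 lower, among them Ptbp1, at 0 and 2.03, against 49.1, while U2af1 stood at 2.31 and 3.17, against 31.4. The p53 targets (5 of 24 members, 2 lower, 1 higher), heat shock genes (4 of 21, 1 lower, 1 higher) and glycolysis genes (4 of 20, none lower, 2 higher) were as mixed. Mdm4, a p53 inhibitor gene, stood at 0.760 and 0.648, against 9.12. Actb was listed at 0 at both times and Gapdh at 0 after 2 h and 0.421 after 1 h, against 128 and 132 without drug, and neither is a member. Of the 15 neural genes 2 were members, with 1 lower, of the 15 fibroblast and feeder genes 1, which was lower, and none of the 16 rows of primitive endoderm genes. These counts read against 28.9% lower and 34% higher over all members, and most rest on fewer than 20 net reads.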

How the data were processed

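The labels describe 20 samples in 10 groups of 2 replicates. The deposited table holds a signal in reads per kb of gene, 1 column per condition, with negative values set to 0 per the file headers (the sheet name). The submitters' processing notes name Bowtie as a tool and GRCm38, or mm10, as the build. How replicates were combined, unlabelled reads subtracted or depth equalised is not given in the sources used here, nor are library sizes and the use of strand.

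Each gene's values are whole multiples of 1 step, 1000 divided by its length, within 0.01 reads, so net reads are value times length in kb. The length equalled the GENCODE M21 span for 11128 genes, came from the step within 20% of the span for 5609, and from the step alone for 775, which are left out of sums and length classes. Of 22556 genes 21800 matched the annotation, and 27 names turned into dates by a spreadsheet were restored by identifier.

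With 1 column per condition no test was run. Differences are log2(2 h + 0.5) minus log2(1 h + 0.5). The code used Python 3.11.15, pandas 2.3.3 and scipy 1.17.1 and was tested on simulated data. Genes were named by a rule: among members with at least 20 net reads, the 10 highest and 10 lowest ratios, the 5 with most reads listed at 0 at each time, the 10 highest means, the 8 longest, up to 3 per list and 12 genes in any case. Genes past long genes, those that kept their signal and other members of the lists were named after their values were seen. The members and lists were chosen with earlier results of these data known. The 420 genes of RNA polymerase III, nearly all of them tRNA genes, are those of RefSeq for GRCm38.p6, and snoRNA, snRNA and microRNA genes are those of GENCODE M21. Some items are not reported here.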

Additional observations from a re-analysis of the deposited data

How the results depend on the processing

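The counts of 638 lower and 750 higher members were 266 and 294 with a pseudocount of 1, 301 and 326 for genes above 1 read per kb, and 106 and 76 with at least 20 net reads; a pseudocount of 0.1 and both rescalings kept each count within 1.5 times, and leaving out the filter could not change them, since no gene outside the members can pass the size rule. The median log2 difference of 0.24 was 0.34 with a pseudocount of 0.1, 0.023 with no filter, 0.074 with at least 20 net reads, 0.40 with equal net read sums and 0.13 after quantile normalization. The ratio of 0.730 over members was 0.855 without the 10 members with most reads, 0.841 over all genes, 0.655 where the span equals the length, and 0.868 with equal sums. Equal sums gave 1.25, 1.37, 1.30, 1.02, 0.836, 0.0995 and 0.271 for the 7 length classes from short to long, and so turned the class of 50 to 100 kb to the higher side. With no filter the classes from 20 kb up had 1.24, 1.16, 1.03, 0.264 and 0.431, which turned those of 50 to 100 kb and 100 to 200 kb to the higher side. Where the span equals the length, the classes of 5 to 20 kb, 20 to 50 kb, 100 to 200 kb, 200 to 400 kb and 400 kb or more had 1.10, 1.05, 0.563, 0.0671 and 0.263. Without the 10 members with most reads, members of 20 to 50 kb had 1.05 and those of 400 kb or more turned to 1.09; without Chrm3 alone, added after the data were seen, that class had 0.151. Over the 15 lists without histone and ribosomal protein genes, 20 members were lower, 21 higher and 34 within; 9 were higher with a pseudocount of 1, 9 were higher and 12 within above 1 read per kb, and 2, 0 and 11 were lower, higher and within with at least 20 net reads. None of the hosts of a polymerase III gene was higher with a pseudocount of 1, above 1 read per kb or with at least 20 net reads, against 1. The ratio of 0.417 past genes of 200 to 400 kb was 0.482 for hosts with at least 20 net reads and 0.266 without Baiap2, both added after the data were seen. The cause of these shifts was not tested unless stated. Among the named genes, 4 that lay within the size rule turned sign with equal sums: the log2 difference was 0.012 in place of -0.22 for Hes7, 0.18 in place of -0.053 for Polr3e, 0.15 in place of -0.10 for Gm10800, and 0.076 in place of -0.16 for Gm21738, which had 0.064 after quantile normalization. No named gene past the size rule turned sign.

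No paired analysis was possible because the table holds 1 column per condition; the replicate block and leaving out each replicate were not run for the same reason. Depth limits single genes most, since 449 members rest on 3 net reads or fewer.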
